A study of Mus musculus with 12 samples.

Results

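Chromatin modifying and remodelling genes were compared between ARG1+ and ARG1- microglia. The genes were chosen by name, as the protein-coding autosomal genes whose symbol begins with Kdm, Kmt, Setd, Hdac, Brd, Arid or Smarc, or is Chd followed by a single digit, which gave 82 of the 55487 genes in the count table. The same pattern matched 6 genes on the sex chromosomes and 4 autosomal genes that are not protein coding, and these were left out. *Brd3os* matched by its name only and was put under no role. Microglia were sorted at postnatal day 13 (P13) from female and male YARG mice, in which the fluorescent protein YFP marks the ARG1+ cells. All of the mice carried this reporter, and both populations were sorted from the same tissue (basal forebrain and striatum) as cells with CX3CR1, the fractalkine receptor of microglia, and without CD206, a receptor of border macrophages. There were 3 libraries each of ARG1- females, ARG1- males, ARG1+ females and ARG1+ males, so 6 libraries for each population. Each library came from the pooled tissue of several brains, and the spread between libraries is therefore a spread between pools.

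Chromatin regulators set which stretches of DNA can be read. Methyltransferases (Kmt and Setd genes) write methyl groups on histone tails, demethylases (Kdm) and deacetylases (Hdac) take methyl and acetyl groups off, bromodomain proteins (Brd) bind acetylated histones, and the ATP-driven remodellers of the SWI/SNF or BAF family (Smarc, with Arid subunits) and the CHD family move or evict nucleosomes. In microglia and other macrophages these enzymes act with lineage transcription factors at enhancers, and several of them are known from inherited neurodevelopmental disorders.

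Promoter sequences are shown for 5 members. *Smarcc2* and *Kdm7a* are members whose increase was still called once a trend on gene length and GC content had been taken out, *Kmt2d* and *Arid1a* are members whose increase was not, and *Smarcb1* is a subunit of the same complex as *Smarcc2* that differed in the other direction. Each sequence is the 250 bases before the start of transcription in RefSeq (GRCm38.p6), 5′ to 3′ on the strand of the gene: *Smarcc2* at chr10:128458986-128459235 (plus strand), *Kdm7a* at chr6:39206774-39207023 (minus), *Kmt2d* at chr15:98871206-98871455 (minus), *Arid1a* at chr4:133756770-133757019 (minus) and *Smarcb1* at chr10:75921615-75921864 (minus). Capitals mark the letters of any of 5 motifs, searched on both strands. The GC box, to which SP1 and related factors bind, was searched as GGGCGG. The letters for the CCAAT box of the factor NF-Y were CCAAT, for the E-box of MITF and related factors CACGTG, and for factors of the ETS family the letters were CCGGAAG. The cAMP response element was searched as TGACGTCA. Neighbouring matches can share letters, and none of these motifs contains another.
Smarcc2: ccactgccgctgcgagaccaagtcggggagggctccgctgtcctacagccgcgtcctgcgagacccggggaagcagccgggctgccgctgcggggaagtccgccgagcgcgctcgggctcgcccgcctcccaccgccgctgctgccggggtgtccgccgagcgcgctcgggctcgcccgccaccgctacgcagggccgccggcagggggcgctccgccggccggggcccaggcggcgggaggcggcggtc
Kdm7a: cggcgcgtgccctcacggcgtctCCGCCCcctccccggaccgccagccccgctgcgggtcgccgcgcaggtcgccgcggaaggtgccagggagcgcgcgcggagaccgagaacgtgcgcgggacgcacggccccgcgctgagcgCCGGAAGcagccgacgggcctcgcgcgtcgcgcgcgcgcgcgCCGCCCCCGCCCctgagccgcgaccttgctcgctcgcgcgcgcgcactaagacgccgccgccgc
Kmt2d: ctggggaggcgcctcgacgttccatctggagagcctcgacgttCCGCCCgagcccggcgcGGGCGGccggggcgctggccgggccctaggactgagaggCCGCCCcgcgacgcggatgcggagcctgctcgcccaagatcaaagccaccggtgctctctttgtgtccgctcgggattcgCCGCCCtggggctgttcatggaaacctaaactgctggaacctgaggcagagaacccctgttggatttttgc
Arid1a: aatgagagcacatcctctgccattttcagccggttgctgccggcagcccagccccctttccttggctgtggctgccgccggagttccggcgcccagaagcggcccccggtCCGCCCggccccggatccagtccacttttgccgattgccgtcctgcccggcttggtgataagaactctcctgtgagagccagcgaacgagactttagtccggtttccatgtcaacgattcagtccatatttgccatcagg
Smarcb1: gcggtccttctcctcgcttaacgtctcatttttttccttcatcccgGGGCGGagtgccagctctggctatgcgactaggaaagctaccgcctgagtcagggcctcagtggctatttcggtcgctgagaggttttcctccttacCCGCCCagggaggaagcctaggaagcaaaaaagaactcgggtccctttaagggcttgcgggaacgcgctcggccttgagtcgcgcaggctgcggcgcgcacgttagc

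The 5 promoters held more CpG than the median promoter of all genes. There were 56 CpG in the *Kdm7a* window, 40 in that of *Smarcc2*, 26 in that of *Kmt2d*, 21 in that of *Smarcb1* and 18 in that of *Arid1a*, where the median over the promoters of 27025 genes was 6. Over the 61 members with a promoter the median was 21, so *Smarcb1* was at it and *Arid1a* below it. *Kmt2d* held 4 GC boxes, *Kdm7a* 3, *Smarcb1* 2 and *Arid1a* 1, and *Smarcc2* held none of the 5 motifs. Of these windows only that of *Kdm7a* held an ETS site. The table of RefSeq promoters used here matched 61 of the 82 members, among them 12 of the 22 members called. A GC box was present in 70.5% of the 61 members and in 33.0% of all promoters of this length. All promoters here means those of the 27025 genes, not limited to protein-coding genes or to genes detected in microglia. The members are protein coding by rule, so the 2 sets are not alike and the difference is not read as a trait of chromatin genes. Among the 11 members that were higher in ARG1+ microglia and had a promoter, 72.7% held a GC box, 36.4% an ETS site and 9.09% a CCAAT box. Among the 48 members not called these shares were 68.8%, 12.5% and 41.7%, and among all promoters 33.0%, 7.11% and 34.3%. The windows of the higher members ended within 110 bases of the annotated 5′ end of the gene. Some of those not called lay far from it, such as *Brd3* at 32264 bases and *Setd5* at 27570. The 2 sets of windows are therefore not alike in place. An E-box was found in 1 of the 61 promoters (1.64%, against 6.02% of all) and a cAMP response element in 0 (1.61% of all). These matches are descriptions of letters in a window, and the lists of members were not compared by a test.

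Of the 82 members, 81 passed the filter on low counts, and *Arid3c* had 0 counts in every library, which allows a level of up to 0.102 CPM. CPM is the count of a gene in relation to the normalized total of its library, and 3 counts were taken as the limit of a count of 0, for counting error only. Total counts lay between 30954399 and 60625170 in ARG1- and between 28356659 and 46569667 in ARG1+ libraries. Each gene was fitted over the 12 libraries with ARG1 status and sex as terms, and the adjusted p values are from the quasi-likelihood test of edgeR with Benjamini–Hochberg adjustment over all 16908 genes tested. No molecular identifiers were used, so amplified copies of a molecule count as separate reads.

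On the counts as deposited, more members were higher than lower in ARG1+ microglia. With a limit of 0.05 on the adjusted p, 19 of the 81 members tested (23.5%) were higher, against 6.44% of all genes tested and 6.79% of protein-coding genes. Only 3 members (3.7%) were lower, against 9.42% of all genes and 11.6% of protein-coding genes. The fitted change was above 0 in 63 members (77.8%), against 53.6% of all genes, and the median log2 fold change was 0.35 over the members and 0.057 over all genes. In 11 members (13.6%) the lowest ARG1+ library exceeded the highest ARG1- library, which was so in 3.48% of all genes, and in 1 member (1.23%), *Hdac1*, the reverse held, against 6.56% of all genes. Summed over the 82 members, the level lay between 3206 and 3502 CPM in ARG1- and between 3785 and 4986 CPM in ARG1+ libraries, so the ranges did not overlap. The count of higher members fell to 12 (15% of those tested) without ARG1- female replicate 2, where 4.14% of all genes were higher. That of lower members fell to 1 without ARG1+ male replicate 12 or 16, where 6% and 5.83% of all genes were lower. With the trend of each library on exon length and GC content removed, 3 members were higher and 7 lower. In bulk samples, fewer cells that use a gene and less RNA per cell cannot be told apart.

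**Figure D1:**
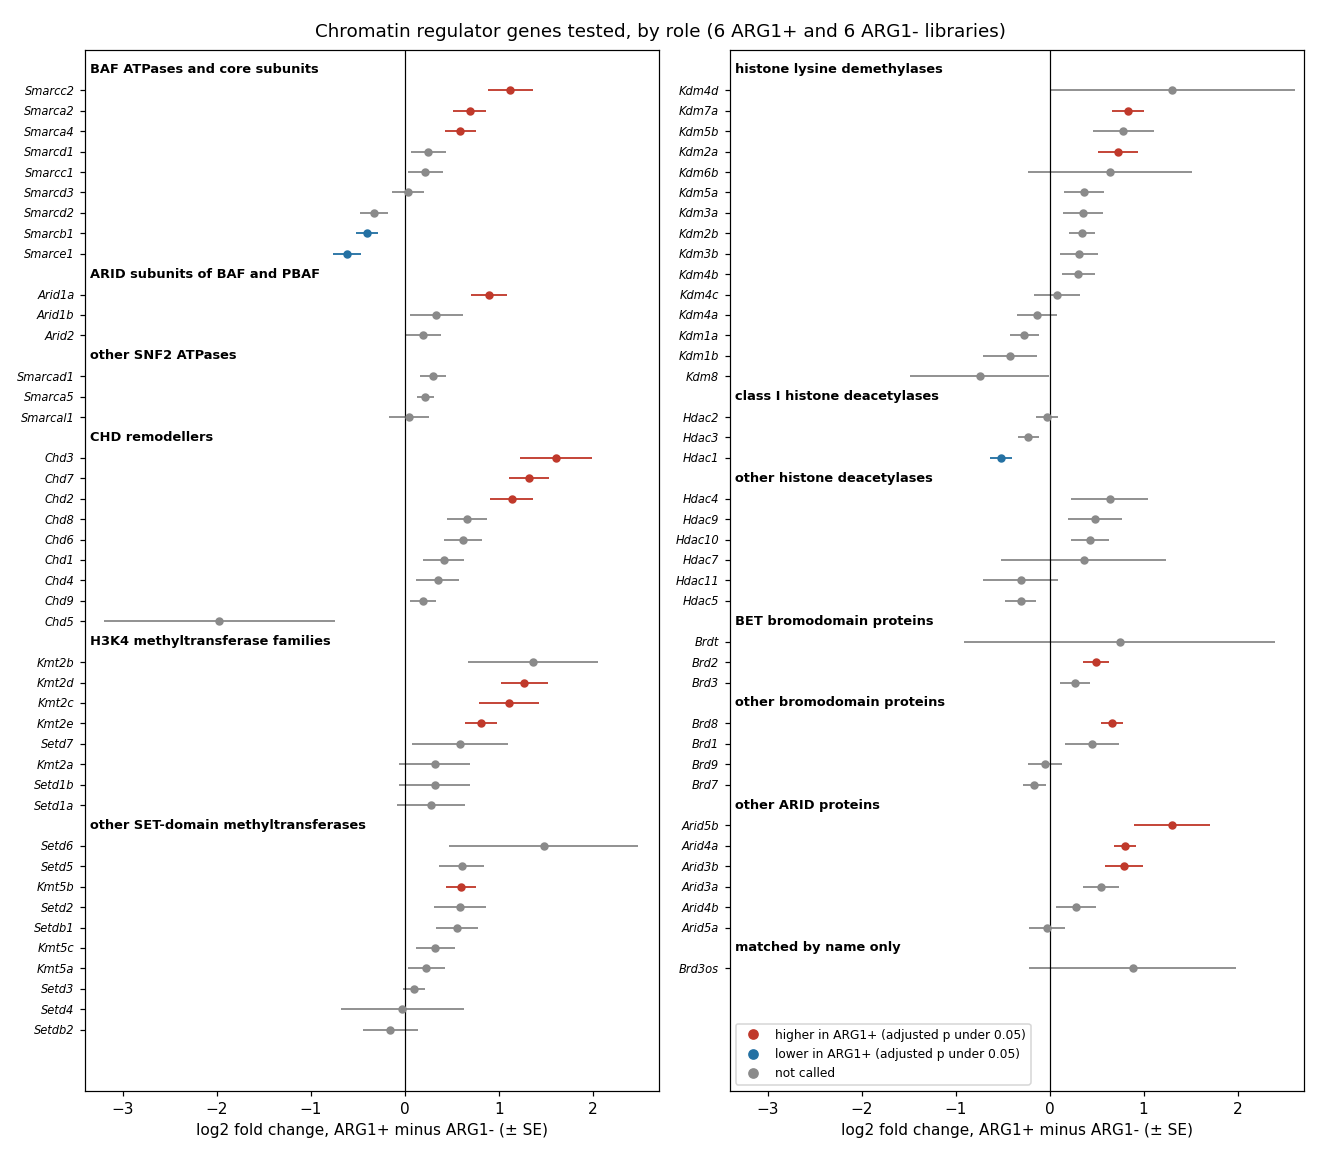
Log2 fold change (ARG1+ minus ARG1-) with its SE for 80 of the 81 members tested, grouped by role, with members higher in red, lower in blue and not called in grey. The 18 higher members drawn fall in 9 of the 12 roles, and the 3 lower ones are Smarce1 and Smarcb1 of the BAF complex and Hdac1.

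The chromatin regulators are long genes, and the counts of long genes differed between the populations. The merged exons of the higher members had a median length of 10444 bases, those of the lower members 6650, those of the members not called 6954 and those of all protein-coding genes tested 4358. Among protein-coding genes of up to 5963 bases, the range that holds the shortest 27 members, 4.02% were higher in ARG1+ microglia and 15.5% lower, with a median log2 fold change of -0.12. Among protein-coding genes of 10678 bases or more, the range that holds the longest 27 members, 20.1% were higher and 1.34% lower, with a median of 0.44. Within the same ranges the members were higher in 2 of 27 (7.41%), 9 of 27 (33.3%, against 10.6% of protein-coding genes of middle length) and 8 of 27 (29.6%). They were lower in 3.7% of the shortest, in 7.41% of the middle (2 of 27, against 3.35% of protein-coding genes) and in 0 of the longest 27 by edgeR. Across genes, which are not independent replicates, the rank correlation of log2 fold change with exon length was 0.36 over the members and 0.38 over the protein-coding genes.

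When the trend of each library's counts on exon length and GC content was taken out before the test, 3 members were higher (*Arid4a*, *Kdm7a* and *Smarcc2*) and 7 lower, against 4.2% and 10.3% of all genes. The median log2 fold change of the members was then -0.043. Of the 22 members called on the counts as deposited, 6 remained called, namely these 3 and the 3 lower members, and 16 did not. *Chd9*, *Kdm1a*, *Arid5a* and *Hdac5* were added as lower members. Removal of the length trend alone left 4 higher members (*Arid4a*, *Chd3*, *Chd7* and *Smarcc2*) and 5 lower members, while removal of the GC trend alone left 18 and 3. In the fit with both trends removed the share of higher members (3.7%) was not above that of all genes. Within the 3 length ranges of the counts as deposited it was above that of protein-coding genes, in the shortest through 2 of 27 members. Genes within a range were not matched in length. The shortest range held members of 1898 to 5823 bases and protein-coding genes of 39 to 5963. The longest held members of 10737 to 23148 bases and protein-coding genes of 10678 to 123179. The shares by range therefore cannot set the members apart from their length. The values with the length and GC trend removed are given beside the calls below as trend-removed values. The cause of the difference with length was not tested.

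**Figure D2:**
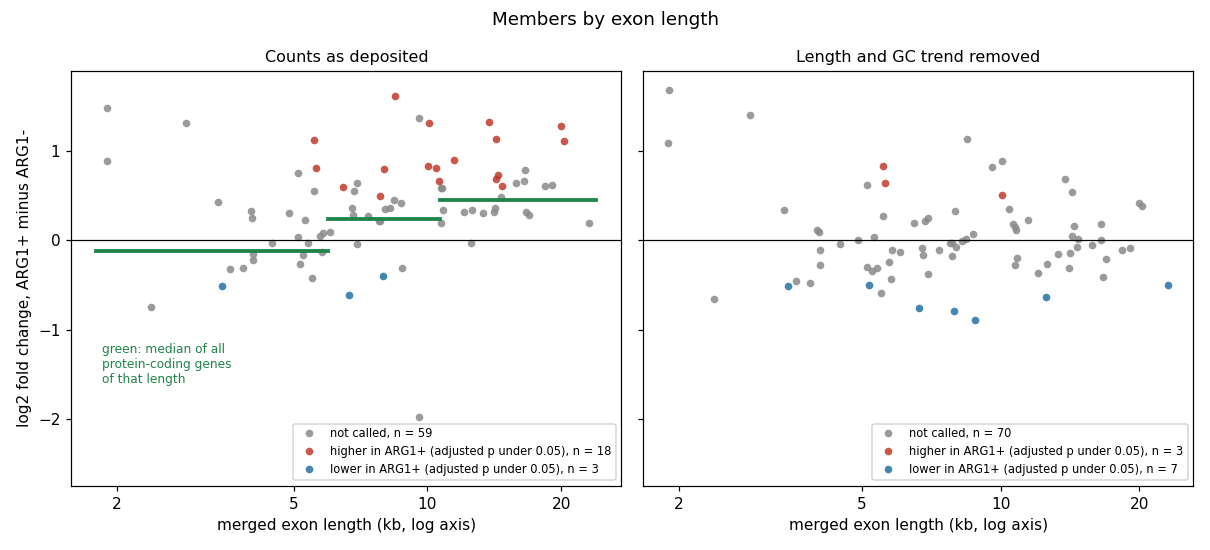
Log2 fold change (ARG1+ minus ARG1-) of 80 of the 81 members tested against merged exon length on a log axis, for the counts as deposited (left, with the medians of all protein-coding genes of 3 length ranges as green bars) and with each library's length and GC trend removed (right). On the left 18 of the members drawn are higher and 3 lower, and on the right 3 are higher and 7 lower.

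The BAF complex opens chromatin with the ATPase *Smarca4* (BRG1) or *Smarca2* (BRM) on a core of scaffold subunits. Of its 9 ATPase and core genes, 3 were higher, 2 were lower and 4 were not called. The counts by role, here and below, stand beside 6.44% of all genes higher and 9.42% lower. *Smarcc2* (BAF170, chr10:128459248-128490482) was at 30.6, 41.7 and 67.3 CPM (lowest, median and highest library) in ARG1- microglia and at 68.5, 88.6 and 159 CPM in ARG1+ microglia. The populations of libraries did not overlap, the fold difference was 2.18 (log2 value 1.12, SE 0.24, adjusted p = 0.0086), and the trend-removed log2 fold change was 0.83 (SE 0.19, adjusted p = 0.0127). Its close relative *Smarcc1* (BAF155), which takes the same place in the scaffold, was not called (log2 fold change 0.22, SE 0.19, adjusted p = 0.481).

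Both ATPases were higher, by 0.69 on the log2 scale (SE 0.18, adjusted p = 0.0204) for *Smarca2* and 0.59 (SE 0.17, adjusted p = 0.0313) for *Smarca4*, and the ranges of libraries overlapped in both. The trend-removed values were 0.050 and 0.19 and were not called. Without ARG1- female replicate 2 *Smarca2* was not called (0.66, adjusted p = 0.0503), and *Smarca4* was called in 7 of the 12 fits that left out 1 library each (0.49 to 0.66). The highest level per exon length in this group was that of *Smarcd2*, at 41.4 RPKM in ARG1- and 32.8 RPKM in ARG1+ microglia (RPKM is CPM per kilobase of merged exons), and it was not called (log2 value -0.33, SE 0.15, adjusted p = 0.174).

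The small DNA-binding subunit *Smarce1* (BAF57, chr11:99209047-99231017) was at 25.2, 31.4 and 42.7 CPM in ARG1- and at 18.5, 20.5 and 27.4 CPM in ARG1+ microglia. It was 1.53-fold lower in the latter (log2 value -0.61, SE 0.15, adjusted p = 0.0151), with only the highest ARG1+ library inside the ARG1- range. *Smarcb1* (SNF5), a core subunit and known tumour suppressor, was 1.32-fold lower (log2 fold change -0.41, SE 0.12, adjusted p = 0.0354). Both stayed lower in the trend-removed values (-0.76 for *Smarce1* and -0.79 for *Smarcb1*), so that subunits of 1 complex differed in both directions under either treatment of length. The call of *Smarcb1* was kept in 2 of the 12 fits without 1 library (-0.45 to -0.34), and it was lost with DESeq2 size factors (-0.37, adjusted p = 0.0511), without a filter (-0.37, adjusted p = 0.0975) and with at least 10 counts in every library (-0.37, adjusted p = 0.0521). *Smarce1* was not called without ARG1+ male replicate 12 (-0.54, adjusted p = 0.0554) or 16 (-0.53, adjusted p = 0.0562).

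The ARID subunits decide which form of the complex is built. *Arid1a* (BAF250A, chr4:133679008-133756769) was at 27.6, 42.7 and 57.9 CPM in ARG1- and at 56.0, 77.2 and 98.4 CPM in ARG1+ microglia. Its log2 fold change was 0.90 (SE 0.19, adjusted p = 0.00835), with the lowest ARG1+ library just inside the ARG1- range. The trend-removed value of *Arid1a* was 0.22 (SE 0.22, adjusted p = 0.580). *Arid1b*, the alternative subunit, was not called (0.33, SE 0.29, adjusted p = 0.483), nor was *Arid2* of the PBAF form (0.19, SE 0.19, adjusted p = 0.538). None of the 3 other SNF2 ATPases was called, among them *Smarca5* (SNF2H), the motor of the ISWI remodellers, at 10.6 RPKM in ARG1- and 12.3 RPKM in ARG1+ microglia (log2 value 0.22, SE 0.095, adjusted p = 0.147).

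**Figure D3:**
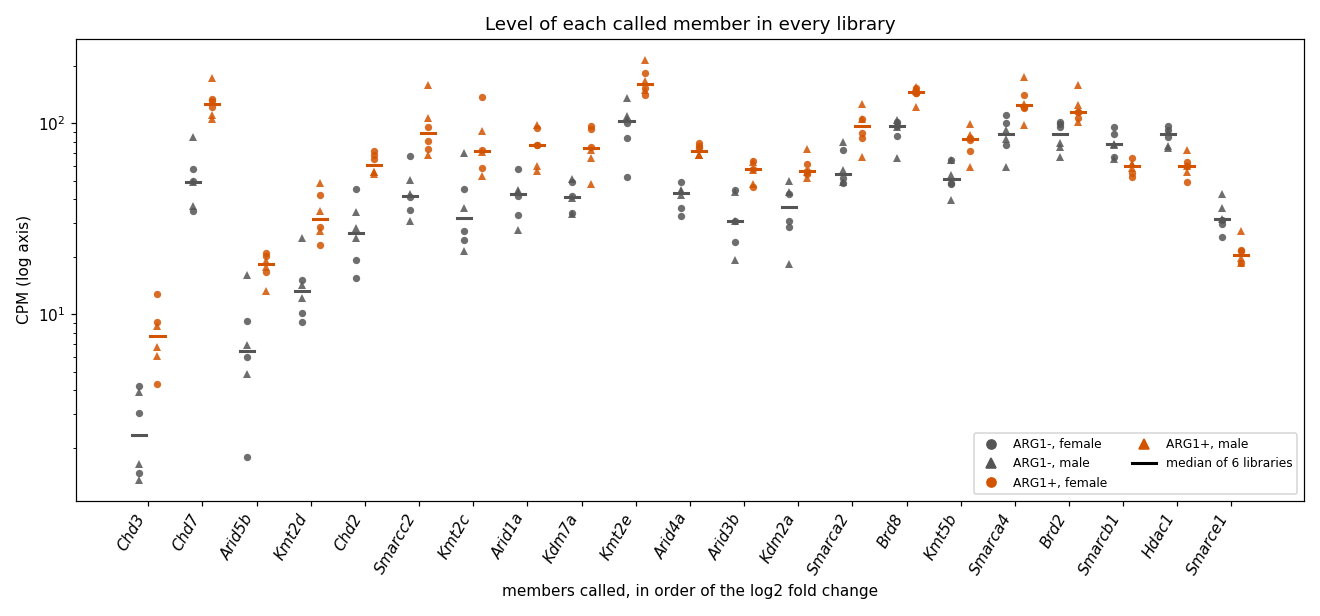
CPM on a log axis of 21 of the 22 called members in each of the 12 libraries, in order of log2 fold change, with ARG1- in grey, ARG1+ in orange, females as circles, males as triangles and the median of 6 libraries as a bar. Chd3 lies lowest, between 1.36 and 12.8 CPM, and in 11 of the 21 members the populations do not overlap.

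The CHD remodellers held 3 of the 5 largest differences among the called members. Of 9 members 3 were higher and none was lower by edgeR on the counts as deposited. In each of the 3 the populations did not overlap, while the ARG1+ libraries lay above all ARG1- libraries in 3.48% of all genes. *Chd3* (chr11:69343273-69369406), an ATPase of the NuRD complex, was at 1.36, 2.34 and 4.19 CPM in ARG1- and at 4.29, 7.68 and 12.8 CPM in ARG1+ microglia. The log2 fold change of *Chd3* was 1.61 (SE 0.38, 3.05-fold, adjusted p = 0.0145), the largest among the called members, at a low level. *Chd4*, the main NuRD ATPase in most tissues, stood at 4.38 RPKM in ARG1- and 5.55 RPKM in ARG1+ microglia, above *Chd3* in both (0.308 and 0.940 RPKM), and was not called (log2 fold change 0.35, SE 0.23, adjusted p = 0.346).

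*Chd7* (chr4:8690406-8867659), the gene mutated in CHARGE syndrome, was at 34.5, 49.5 and 85.0 CPM in ARG1- and at 105, 126 and 174 CPM in ARG1+ microglia. With 9.38 RPKM it had the highest level per length of the CHD genes in ARG1+ microglia, while in ARG1- microglia it stood at 3.78 RPKM, below *Chd4* and *Chd9*. Its log2 fold change was 1.32 (SE 0.21, 2.49-fold, adjusted p = 0.00197). *Chd2* (chr7:73426638-73541830) was at 15.6, 26.5 and 45.1 CPM in ARG1- and at 54.1, 60.2 and 71.3 CPM in ARG1+ microglia, and differed by 1.14 on the log2 scale (SE 0.23, adjusted p = 0.0067). A same-strand gene covers 18.4% of the exon bases of *Chd2*, so reads there cannot be assigned to either with certainty. The trend-removed log2 fold changes were 1.13 (adjusted p = 0.0593) for *Chd3*, 0.68 (adjusted p = 0.0738) for *Chd7* and 0.54 (adjusted p = 0.201) for *Chd2*, all in the same direction and none called. *Chd1*, the nearest relative of *Chd2*, was not called (0.41, SE 0.22, adjusted p = 0.236). *Chd9* was not called on the counts as deposited (0.19, SE 0.14, adjusted p = 0.396). In the trend-removed values the sign of *Chd9* turned and it was called lower (-0.50, SE 0.13, adjusted p = 0.022).

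Of the 8 genes of the families of methyltransferases for lysine 4 of histone H3, which include *Kmt2e*, not known as an active enzyme, 3 were higher and none was lower, and all 8 fitted changes were above 0. With the length and GC trend removed their calls were lost, and 3 of the 8 (*Kmt2a*, *Setd1a* and *Setd1b*) were fitted below 0. *Kmt2d* and *Kmt2c*, which place the first methyl group at enhancers, were both higher. *Kmt2d* (chr15:98831669-98871204) was at 9.16, 13.2 and 24.96 CPM in ARG1- and at 23.2, 31.6 and 48.4 CPM in ARG1+ microglia, and the ranges met at 1 library of each population. Its log2 fold change was 1.27 (SE 0.25, adjusted p = 0.00524) and its trend-removed value 0.42 (SE 0.23, adjusted p = 0.267). *Kmt2c* (chr5:25271798-25498783) was at 21.4, 31.8 and 70.2 CPM in ARG1- and at 53.1, 71.4 and 138 CPM in ARG1+ microglia, with an overlap that came from 1 ARG1- library (male replicate 14, the 70.2 CPM). It differed by 1.11 on the log2 scale (SE 0.32, adjusted p = 0.0361), and by 0.38 in the trend-removed values. The call of *Kmt2c* was kept in 3 of the 12 fits without 1 library (0.88 to 1.42). With the GC trend alone removed this call was also lost (0.99, adjusted p = 0.0554).

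*Kmt2e* (chr5:23434441-23504235), a family member that reads methylated lysine 4 with its PHD finger, was the most abundant of these genes, at 9.35 RPKM in ARG1- and 16.1 RPKM in ARG1+ microglia. It was at 52.3, 103 and 135 CPM in ARG1- and at 141, 160 and 215 CPM in ARG1+ microglia, without overlap (log2 value 0.81, SE 0.17, adjusted p = 0.00755), and its trend-removed value was 0.35 (adjusted p = 0.196). *Kmt2b* had the largest fitted change of the family, 1.36, but its libraries varied so widely (SE 0.69, from 3 to 643 counts in ARG1- libraries) that it was not called (adjusted p = 0.218).

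Among 10 other SET-domain methyltransferases, 1 was higher. *Kmt5b*, which adds methyl groups to lysine 20 of histone H4, was 1.51-fold higher (log2 fold change 0.60, SE 0.16, adjusted p = 0.0228), with overlapping ranges and a trend-removed value of 0.016. Without ARG1- female replicate 2 it was not called (0.57, adjusted p = 0.0546). Its relative *Kmt5c* was not called (0.32, SE 0.21, adjusted p = 0.339). *Setdb1*, a methyltransferase for lysine 9 of histone H3 that silences transposable elements, had the highest level per length of this group, at 12.04 RPKM in ARG1- and 17.3 RPKM in ARG1+ microglia, and was not called (0.55, SE 0.22, adjusted p = 0.113). *Setd5* was not called either (0.60, SE 0.24, adjusted p = 0.117).

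Of 15 histone lysine demethylases, 2 were higher and none was lower. *Kdm7a* (chr6:39136623-39206789), which removes methyl groups from lysines 9 and 27 of histone H3, was at 33.5, 41.0 and 50.8 CPM in ARG1- and at 48.2, 74.0 and 96.6 CPM in ARG1+ microglia. Only the lowest ARG1+ library lay within the ARG1- range, the log2 fold change was 0.83 (SE 0.17, 1.78-fold, adjusted p = 0.00622), and the trend-removed value was 0.51 (SE 0.12, adjusted p = 0.0132). With the length trend alone removed it was 0.39 and was not called (adjusted p = 0.103). *Kdm2a*, a demethylase for lysine 36 of histone H3 that binds unmethylated CpG islands, was higher by 0.73 on the log2 scale (SE 0.22, adjusted p = 0.0390) without overlap, and its trend-removed value was 0.16. Its call was kept in 5 of the 12 fits without 1 library (0.61 to 0.85), and its relative *Kdm2b* was not called (0.34, SE 0.14, adjusted p = 0.120). *Kdm1a* (LSD1), which acts in corepressor complexes, had the highest level per length of the demethylases over both populations, at 17.1 RPKM in ARG1- and 14.2 RPKM in ARG1+ microglia, and was not called (-0.27, SE 0.15, adjusted p = 0.269), while its trend-removed value of -0.50 (SE 0.14, adjusted p = 0.0356) was called lower. The demethylase for lysine 27 of histone H3 known from macrophage activation, *Kdm6b*, was near the limit of detection in some libraries, with 2 to 192 counts in ARG1- and 55 to 106 in ARG1+ libraries.

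Of the deacetylases, 1 of 9 was called on the counts as deposited. *Hdac1* (chr4:129516104-129542713), a catalytic subunit of the SIN3, NuRD and CoREST corepressor complexes, was at 74.6, 87.4 and 96.3 CPM in ARG1- and at 49.4, 59.99 and 72.1 CPM in ARG1+ microglia. The populations did not overlap, and *Hdac1* was 1.43-fold lower (log2 fold change -0.51, SE 0.11, adjusted p = 0.0105). The trend-removed value was also -0.51 (SE 0.10, adjusted p = 0.00613), and the call held in all 12 fits without 1 library. *Hdac2*, which pairs with *Hdac1* in these complexes, was at 21.2 RPKM in ARG1- and 20.8 RPKM in ARG1+ microglia and was not called (-0.028, SE 0.12, adjusted p = 0.904). *Hdac3*, the deacetylase of the NCoR complex, was not called (-0.22, SE 0.11, adjusted p = 0.209). The remaining 6 deacetylases (*Hdac4*, *Hdac5*, *Hdac7*, *Hdac9*, *Hdac10* and *Hdac11*) were not called, with log2 fold changes from -0.31 to 0.64. *Hdac10* had the highest level per length of these, at 10.4 RPKM in ARG1- and 13.9 RPKM in ARG1+ microglia. *Hdac5* was called lower in the trend-removed values (-0.89, SE 0.15, adjusted p = 0.00193), from -0.31 on the counts as deposited.

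Bromodomain proteins bind acetylated histones. *Brd2*, of the BET family, which carries this signal to the transcription machinery, was higher by 0.49 on the log2 scale (SE 0.14, adjusted p = 0.0321). The populations did not overlap but with little to spare, since the ARG1- libraries reached 101.6 CPM and the ARG1+ libraries began at 101.9 CPM. The trend-removed value of *Brd2* was -0.030 (adjusted p = 0.899), so the sign of the difference turned. It was called in 7 of the 12 fits without 1 library (0.41 to 0.57).

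Of the 4 other bromodomain genes, *Brd8*, a subunit of the TIP60 acetyltransferase complex, was higher, at 65.5, 96.3 and 104 CPM in ARG1- and at 122, 146 and 156 CPM in ARG1+ microglia. The log2 fold change of *Brd8* was 0.66 (SE 0.12, adjusted p = 0.00359), and the trend-removed value was 0.18 (adjusted p = 0.372). *Brd7*, a PBAF subunit, had the highest level per length of this group (17.3 RPKM in ARG1- and 15.4 RPKM in ARG1+ microglia) and was not called (-0.16, SE 0.12, adjusted p = 0.424).

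Of 7 ARID proteins outside the BAF complex, 3 were higher, 3 were not called and *Arid3c* was not tested. *Arid5a* was among those not called (-0.030, SE 0.19, adjusted p = 0.939), while its trend-removed value of -0.63 (SE 0.17, adjusted p = 0.0237) was called lower. *Arid4a* (chr12:71015990-71098592), which binds the retinoblastoma protein and belongs to the SIN3 deacetylase complex, was at 32.5, 43.1 and 49.1 CPM in ARG1- and at 68.1, 71.3 and 78.9 CPM in ARG1+ microglia. The populations lay well apart, with the smallest adjusted p of the members (log2 fold change 0.80, SE 0.12, 1.75-fold, adjusted p = 0.00126). The trend-removed value of *Arid4a* was 0.64 (SE 0.11, adjusted p = 0.00295), and it was called in all 12 fits without 1 library. Its relative *Arid4b* was not called (0.28, SE 0.21, adjusted p = 0.429).

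*Arid3b*, a sequence-specific DNA-binding protein (chr9:57790353-57836793), was at 19.3, 30.8 and 44.6 CPM in ARG1- and at 46.2, 57.3 and 63.6 CPM in ARG1+ microglia. The libraries did not overlap, the log2 fold change was 0.79 (SE 0.21, adjusted p = 0.0217), and the trend-removed value was 0.33 (adjusted p = 0.329). *Arid5b* (chr10:68092520-68278740), a partner of the demethylase PHF2, was at 1.79, 6.42 and 16.1 CPM in ARG1- and at 13.2, 18.3 and 20.9 CPM in ARG1+ microglia. The ranges overlapped through the highest ARG1- library (male replicate 5), and the log2 fold change was 1.30 (SE 0.40, adjusted p = 0.0453). The trend-removed value of *Arid5b* was 0.88 (adjusted p = 0.162). Its call was kept in 2 of the 12 fits without 1 library (1.06 to 1.65), and was lost without a filter (1.34, adjusted p = 0.0507).

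Many of these genes have a close relative in the same family, in some cases 1 that takes the same place in a complex, and the balance within 22 pairs of related genes was followed as the share of the first gene in the RPKM of both. In 2 pairs the shares of the 6 ARG1+ libraries lay apart from those of the 6 ARG1- libraries. Since the levels of single genes lay apart in 3.48% of all genes upward and in 6.56% downward, 2 of 22 is not read as a result about the pairs. The share of *Smarcc1* in the *Smarcc1* and *Smarcc2* pair was 51.1% ± 7.48 (SD, n = 6, 42.1 to 60.4%) in ARG1- and 36.0% ± 5.22 (27.3 to 40.7%) in ARG1+ microglia. The share of *Chd3* in the *Chd3* and *Chd4* pair was 6.72% ± 2.66 (2.95 to 10.46%) in ARG1- and 14.3% ± 2.85 (11.7 to 18.5%) in ARG1+ microglia. The share of *Hdac1* in the *Hdac1* and *Hdac2* pair was 54.1% ± 4.75 in ARG1- and 45.5% ± 2.58 in ARG1+ microglia, with a small overlap of the ranges (49.5 to 59.7% and 43.5 to 50.2%). In the pair of ATPases the share of *Smarca2* was 24.1% ± 5.29 and 25.04% ± 1.39, and in the pair of *Kmt2c* and *Kmt2d* the share of *Kmt2c* was 70.3% ± 13.005 and 69.0% ± 7.24, a difference well under the spread in both. *Smarcc1* (7832 bases) is longer than *Smarcc2* (5552 bases), while *Chd3* (8443 bases) and *Chd4* (8019 bases) are close in length. The shares are descriptions, with no test over the pairs.

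**Figure D4:**
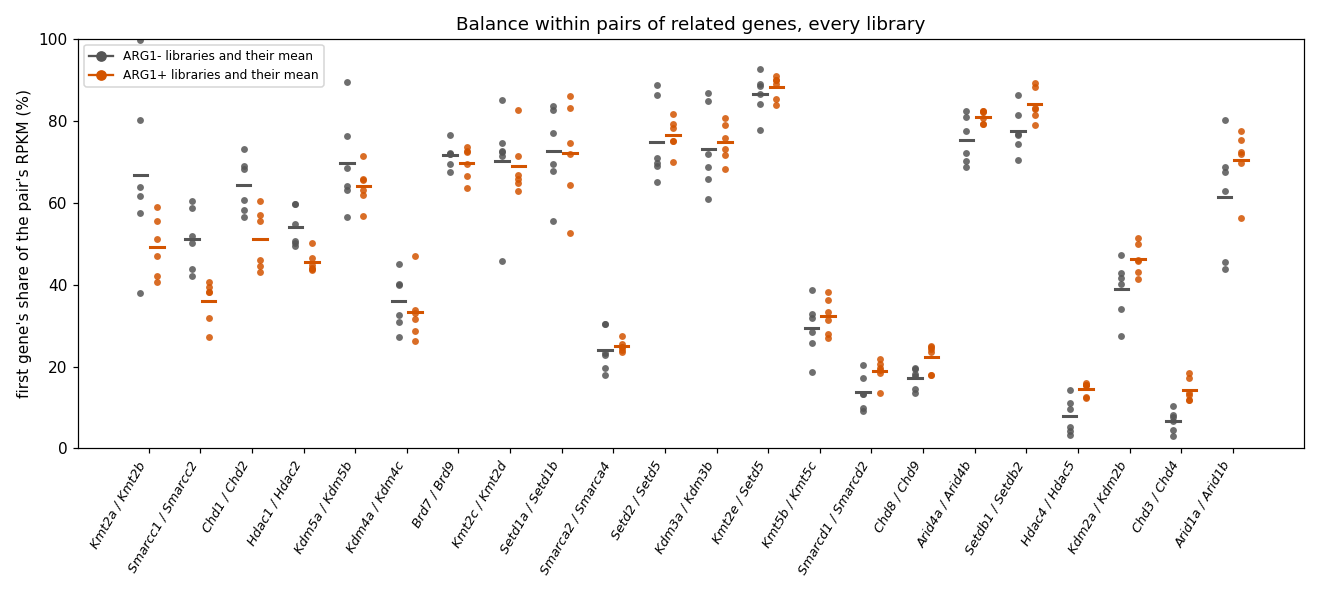
Share of the first gene in the summed RPKM of each of 22 pairs (%), for each ARG1- library (grey) and ARG1+ library (orange), with the mean of 6 as a bar. The populations lie apart for Smarcc1 / Smarcc2 and for Chd3 / Chd4.

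Females and males were compared by the interaction of sex with ARG1 status, since the sexes were sampled alike. By edgeR, 0 of the 81 members had an interaction at an adjusted p under 0.05, where 0 of all 16908 genes did. The smallest adjusted p of a member was 0.456 (*Smarcd2*, with a log2 fold change of -0.70 in females and 0.046 in males). At an unadjusted p under 0.05 there were 7 members (8.64%), against 9.32% of all genes, and by the Wald test of DESeq2 0 members passed an adjusted p of 0.05, where 322 genes did. In all 22 called members both sexes differed in the same direction, as in 99.8% of all genes called. *Chd3* differed by 1.59 in females and 1.63 in males, *Arid1a* by 0.91 and 0.88, *Smarcc2* by 0.80 and 1.44, and *Kmt2c* by 1.46 and 0.75. *Brd2* differed by 0.18 in females and 0.81 in males, with an adjusted p of 0.486 for the interaction in edgeR. The labels number 4 of the 12 libraries 13 to 16, 1 in each group, apart from the rest. The 22 called members kept 1 direction within these 4 and within the other 8 libraries, but so did 2681 of all 2682 genes called on the same 12 libraries, so nothing is read from it about the members.

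**Figure D5:**
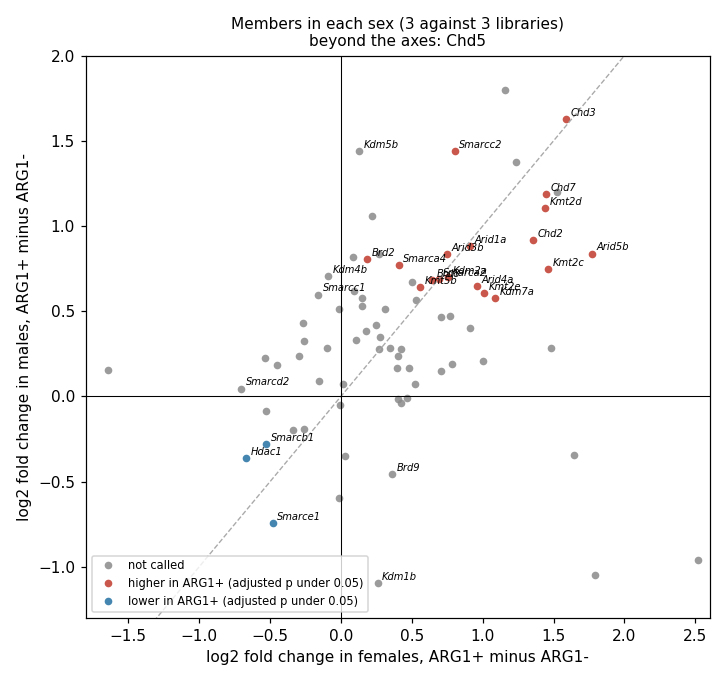
Log2 fold change (ARG1+ minus ARG1-) of 80 members in females (horizontal axis) against males (vertical axis), 3 against 3 libraries in each, with the line of equal change dashed. The 21 called members drawn, in red and blue, lie in the quadrants where both sexes differ in the same direction, and no member had an interaction at an adjusted p under 0.05.

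Genes of the same pathways that the name rule does not reach were taken from 8 further lists, with 144 genes tested. Of these, 24 (16.7%) were higher and 10 (6.94%) lower in ARG1+ microglia, against 6.44% and 9.42% of all genes, with a median log2 fold change of 0.16, against 0.057 over all genes. Among the histone acetyltransferases, the writers of the mark that bromodomains read, 4 of 14 were higher and 2 lower. *Crebbp* (CBP) was higher by 1.01 (SE 0.20, adjusted p = 0.00647) and the coactivator *Ncoa1* by 1.06 (SE 0.21, adjusted p = 0.00592). In the DNA methylation list 4 of 12 were higher and none lower, with *Tet3*, which oxidizes methylcytosine, higher by 1.41 (SE 0.16, adjusted p = 0.000468) and the methyltransferase *Dnmt3a* by 0.99 (SE 0.15, adjusted p = 0.0013). Both *Tet3* and *Ncoa1* were also called in the trend-removed values (0.72 and 0.63), while *Crebbp* (0.41) and *Dnmt3a* (0.30) were not.

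Of 24 genes of the deacetylase corepressor complexes, the partners of *Hdac1*, 5 were higher and 2 lower, and with the trend removed the 5 higher calls were lost and 3 genes were lower. *Rbbp4*, the histone chaperone that the SIN3, NuRD and Polycomb complexes share, was lower (log2 value -1.01, SE 0.13, adjusted p = 0.000633) and the scaffold *Sin3b* was lower too (-0.74, SE 0.12, adjusted p = 0.00167). Both remained lower in the trend-removed values (-1.37 and -1.20). Of the 13 subunits that the COMPASS methyltransferases share, *Hcfc1* was higher (0.84, SE 0.25, adjusted p = 0.0401, and 0.39 and not called in the trend-removed values) and *Dpy30*, a small core subunit, lower (-1.02, SE 0.21, adjusted p = 0.00637, and -0.55 in the trend-removed values).

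Among the 13 accessory BAF and PBAF subunits 1 was higher, *Pbrm1* (0.65, SE 0.16, adjusted p = 0.0150), the polybromo subunit that defines PBAF. *Bcl7a* was not called (0.68, SE 0.26, adjusted p = 0.0934). Of 25 genes of the INO80, SRCAP and TIP60 remodellers 4 were higher and 2 lower, with *Trrap* higher by 1.11 (SE 0.30, adjusted p = 0.0265) and *Ep400* by 0.88 (SE 0.24, adjusted p = 0.0297), 2 large partners of *Brd8* in the TIP60 complex. Of 19 other histone methyltransferases 3 were higher and 2 lower, with *Nsd1* (0.78, SE 0.17, adjusted p = 0.00851) and *Ash1l* (0.82, SE 0.18, adjusted p = 0.00926) higher. Of 24 Polycomb genes 2 were higher and 1 lower, with *Cbx7* (1.60, SE 0.47, adjusted p = 0.0383) and *Phc3* (1.08, SE 0.32, adjusted p = 0.0362) higher. Of all genes 6.44% were higher and 9.42% lower, and no single list was compared with these shares by a test. With the length and GC trend removed, 3 of the 144 genes (2.08%) were higher and 13 (9.03%) lower, against 4.2% and 10.3% of all genes, and none of the genes named in this paragraph was called.

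Other properties of the libraries moved with ARG1 status as well. The counts of calls below stand beside 6.44% of all genes higher, 9.42% lower and 53.6% fitted above 0. Messenger RNAs of ribosomal proteins took 0.614 to 0.756% of the counts in ARG1- and 0.351 to 0.474% in ARG1+ libraries, and mitochondrial transcripts 0.247 to 0.636% and 0.147 to 0.396%. Of 15 genes with detained introns or nuclear RNA, 8 were higher and 1 lower, with summed levels of 2291 to 4654 CPM in ARG1- and 4824 to 8286 CPM in ARG1+ libraries. Of 15 immediate early genes tested, which are induced within minutes of a stimulus and also by tissue dissociation, 14 were fitted above 0, 2 were higher and 13 not called, and 3 were higher with the trend removed. Their summed levels were 507 to 820 CPM in ARG1- and 702 to 850 CPM in ARG1+ libraries. Of 12 cell cycle genes, 1 was higher and 3 lower, with summed levels of 744 to 1008 and 761 to 963 CPM. Genes with a count numbered 17846 to 19844 in ARG1- and 19018 to 21734 in ARG1+ libraries, whose total counts overlapped. The microglia markers were abundant in both populations, with summed levels of 65034 to 90079 CPM in ARG1- and 55048 to 67321 CPM in ARG1+ libraries, and 8 of 12 were lower and 1 higher. Summed neuron markers were at 8.59 to 22.0 and 3.02 to 13.5 CPM, oligodendrocyte markers at 266.9 to 392.1 and 171 to 268 CPM, astrocyte markers at 179 to 224 and 131 to 152 CPM, endothelial markers at 29.8 to 58.1 and 44.9 to 83.6 CPM, border macrophage markers at 119.6 to 144.5 and 119.3 to 253 CPM and monocyte markers at 5.12 to 18.5 and 9.61 to 22.9 CPM. No neuron, endothelial or border macrophage marker was called. Of the astrocyte markers *Slc1a3*, a glutamate transporter, was lower (155 to 209 CPM in ARG1- and 125 to 136 CPM in ARG1+ libraries), and of the oligodendrocyte markers *Cnp*, a myelin enzyme, was lower (171 to 240 and 114 to 143 CPM). Of the monocyte markers *Plac8* was lower (4.08 to 9.09 and 0.378 to 2.3 CPM), and *Fn1*, which encodes fibronectin, was higher, at 0 counts in every ARG1- library and 0 to 1.95 CPM in ARG1+ libraries. *Mrc1*, which encodes the CD206 that the sort gated out, was at 121 CPM ± 16.1 (SD, n = 6) in ARG1- and 147 CPM ± 46.4 in ARG1+ libraries and was not called. Summed T cell markers were at 0.593 to 1.96 and 1.45 to 2.72 CPM, with 5 of 8 at 0 counts in every library, among them *Cd3e* and *Cd3d*. Summed neutrophil markers were at 293 to 363 and 331 to 506 CPM, nearly all of it *Csf3r* (293 to 363 and 331 to 506 CPM), the receptor for a growth factor of granulocytes, while *Mpo* and *Retnlg* were at 0 counts in every library. The part of each of these in the differences of the chromatin genes was not tested.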

How the data were processed

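RNA-seq counts of 12 libraries of sorted microglia were analysed. According to the methods of the study, tissue of several brains was pooled for each library, complementary DNA was made with the SMART-Seq v4 kit and libraries with Nextera XT, and single-end reads of 75 bases were produced. The processing notes of the submitters name bcl2fastq 2.20.0, STAR 2.6.1d, featureCounts 1.5.1, DESeq2 1.28.1 and the build GRCm38. The values the authors deposited are raw counts per gene without normalization, 1 column per library, and 0 columns were left unused. Whether counting used strand is not given in the sources used here, so reads of overlapping genes cannot be told apart, and 6 members share over 10% of their exon bases with another gene.

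Symbols, positions and exon lengths were taken from GENCODE M21, which matched 55227 of 55487 identifiers (the other 260 held 0.0333% of counts), and promoters from RefSeq GRCm38.p6. The counts were fitted in edgeR 4.0.16 (R 4.3.3), after a filter on low counts (filterByExpr, by sex and ARG1 status) and TMM scaling, by glmQLFit and glmQLFTest with sex and ARG1 status as terms. The interaction came from a model with 1 mean per group. Each standard error is the log2 fold change over the root of the F statistic. The test was run first on simulated data, in which 200 genes were given a log2 change of 1. It called 92 of the 200, all 92 in the right direction, and 3 unchanged genes. A member that was not called may therefore still differ. Replicate libraries differed by far more than sampling noise (chi-square from 44.4 to 135 times the degrees of freedom), more than resequencing of 1 library would give. Amplification also adds spread, so this cannot show that the libraries are independent. Each counted as 1 replicate by its label. Labels do not say which libraries share a litter, and p values measure the spread between these pooled libraries.

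The members and the gene lists were chosen with earlier results of these data known. Named were the members called, with library values for the 12 of largest fitted change, the member of highest level per length in each role, the relative of a called member, and the 2 genes of smallest p in each further list. *Smarce1*, *Brd8*, *Hdac1*, *Hdac3*, *Kmt2b*, *Kdm6b*, the members in the account of the sexes, the calls added by the trend removal and the marker genes were given values beyond that rule, after their values were seen. Alternatives were other normalizations and filters, protein-coding genes only, a term for libraries 13 to 16, ARG1 status alone, DESeq2 1.42.0, removal of the trend of each library on exon length and GC content (mgcv 1.9.3) and each library left out. The length and GC trends alone were added after seeing the data. The values of 1 member that was called are not reported here, though the member is counted in the totals.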

Additional observations from a re-analysis of the deposited data

Results flagged for a closer look

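Single libraries far from the rest of their population were looked for in 48 groups of 6 libraries (the called members, the total counts and the summed CPM of the members in each population), where chance alone gives about 2.4, and 2 were found, both in ARG1+ male replicate 11. *Brd8* stood at 122.3 CPM there, against 144 to 156 CPM in the other 5 ARG1+ libraries. *Smarce1* stood at 27.4 CPM there, against 18.5 to 21.8 CPM in the others. In both genes this library lay on the side of the ARG1- libraries.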

How the results depend on the processing

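No paired analysis was possible because the labels give each library a number of its own, so that no number is shared between groups. On the counts as deposited 19 members were higher and 3 lower, with a median log2 fold change of 0.35. With the length and GC trend removed these were 3, 7 and -0.043, and with the length trend alone removed (added after seeing the data) 4, 5 and -0.0057. The other alternatives gave 18 to 27 higher and 2 or 3 lower members, with 27 by DESeq2 (33.3%, against 11.8% of all genes), while 3.36 to 11.8% of all genes were higher and 3.7 to 13.5% lower. Leaving out 1 library gave 12 (without ARG1- female replicate 2) to 20 higher and 1 (without ARG1+ male replicate 12 or 16) to 3 lower members, and 3.89 to 6.27% of all genes higher and 5.83 to 8.73% lower. Of the 22 called members, 13 were called in all 12 such fits. With both trends removed the fitted sign turned in 27 of the 81 members, each time from above 0 to below 0. Among the members named in the report by the rule, it turned with both trends removed in *Brd2* (-0.030), and with both trends or with length alone removed in *Arid1b* (-0.27 and -0.20), *Arid2* (-0.28 and -0.28), *Arid4b* (-0.21 and -0.31), *Chd4* (-0.079 and -0.0057), *Kdm2b* (-0.20 and -0.12), *Setd5* (-0.11 and -0.036), *Smarca5* (-0.031 and -0.13) and *Smarcc1* (-0.18 and -0.15). *Hdac2* turned to 0.0093 with DESeq2 size factors, 0.0059 without a filter, 0.011 with at least 10 counts in every library and 0.016 by DESeq2, and lay between -0.067 and 0.050 in the fits without 1 library. The cause was not tested. No interaction of sex with ARG1 status was called among members in any setting that fitted one, by edgeR or DESeq2. Members at a few counts in a library, such as *Chd5*, *Kdm4d* and *Brdt*, had standard errors above 1 on the log2 scale, and no difference was detectable in them at this depth.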
